A study of Mus musculus with 6 samples.

Results

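Binding of TAF4A, part of the TFIID complex that RNA polymerase II needs to start transcription, was mapped by CUT&RUN in muscle stem cells (MuSCs), and the peaks at cell cycle and DNA replication genes are described here. In CUT&RUN an antibody guides a nuclease to the protein in permeabilised cells, and the fragments it cuts free are sequenced. The study assumes that it mostly detected TAF4A outside TFIID, since the antibody may not easily reach TAF4A within that complex. Members were chosen by gene symbol alone, with a pattern that takes cyclins, cyclin-dependent kinases and their inhibitors, replication proteins, topoisomerases, kinesins, tubulins, cohesin subunits and the Gadd45 and Btg families. The pattern matched 40 of 1131 TAF4A peaks, listed for 33 genes. They were placed in 4 groups, also by symbol: cell cycle control (9 peaks, 8 genes), replication (7 peaks, 7 genes), mitosis (18 peaks, 12 genes) and DNA damage and growth arrest (6 peaks, 6 genes). Genes without a peak cannot be members, and how many there were is given further on from gene lists.

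All libraries came from wild type C57BL/6 mice, whose MuSCs had been cultured and were in an activated, proliferating state, so resting cells were not examined. By the study's methods, MuSCs were sorted for integrin alpha 7 or a Pax7 reporter after removal of cells that carry SCA1, CD45 or CD31, and its mice were 8 to 20 weeks old. Of 6 libraries, 3 used an antibody to TAF4A and 3 used mouse IgG, which has no target in these cells. Only counts of the 3 TAF4A libraries were analysed, and enrichment over IgG is not given. Counts over peaks were 47723, 24826 and 32128 in replicates 1, 2 and 3, and normalised counts are counts after division by the scaled library size. The study describes its replicates as biological, but the labels give only a number. Errors thus cover the spread between these libraries, which may be technical in part. By the study's records, reads of replicate 3 were longer than those of replicates 1 and 2. Differences of replicate 3 cannot be told apart from read length. A peak centred at a transcript start was present for 3 of 13 MuSC and myoblast markers, Myod1, Cxcr4 and Des, and for 1 of 9 markers of other cells in muscle, Acta2. Pax7 and Myf5 had none.

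Cells that enter the cycle switch on genes in waves. Genes for the start of S phase typically carry sites for E2F factors near their start, whereas genes needed in G2 and mitosis often carry CCAAT boxes, bound by the trimeric factor NF-Y, together with the cell cycle genes homology region (CHR), bound by the DREAM and MMB complexes. SP1 binds GC-rich boxes in many promoters. Inhibitors such as p21 and p27 and the Gadd45 and Btg proteins restrain the cycle, many of them as targets of p53 or of stress signalling, and in MuSCs the balance of these genes goes with leaving and returning to quiescence.

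4 motifs were searched on both strands of each peak: NF-Y as CCAATCA, SP1 as GGGCGGG, E2F as TTTCCCGC, TTTCGCGC, TTTGCCGC or TTTGGCGC, and CHR as TTTGAA. No match of one motif overlapped a match of another in the members, but SP1 matches overlapped each other at Kif24. The sequences below were read from GRCm38 on the strand of the gene, 5′ to 3′, with motif matches in capitals (a match on the opposite strand appears as its reverse complement). Only stretches outside annotated exons are shown, or 30 bases where a motif lay within an exon. The first 2 show genes of mitosis and cell cycle control that hold both an NF-Y and a CHR motif, namely Tubb4b (chr2:25224740-25224915, minus strand) and Cks2 (chr13:51645193-51645231, plus strand, of which the CHR match and the second NF-Y match lie beyond the printed stretch). Tuba1c (chr15:99030207-99030236, plus strand) is the other gene with both, and its 30 bases show the NF-Y match alone, since the CHR match ends just before them. Smc3 (chr19:53599982-53600162, plus strand) holds the only E2F match. Rpa2 (chr4:132768103-132768206, plus strand) and Top2b (chr14:16365061-16365160, plus strand) are the replication genes with an NF-Y motif.

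Tubb4b: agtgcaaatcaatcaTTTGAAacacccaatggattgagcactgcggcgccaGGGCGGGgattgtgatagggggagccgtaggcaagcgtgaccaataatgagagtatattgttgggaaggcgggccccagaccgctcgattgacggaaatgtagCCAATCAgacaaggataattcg
Cks2: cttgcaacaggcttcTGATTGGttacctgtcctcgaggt
Tuba1c: ctttcgaacccgCCAATCAtcggcttcgct
Smc3: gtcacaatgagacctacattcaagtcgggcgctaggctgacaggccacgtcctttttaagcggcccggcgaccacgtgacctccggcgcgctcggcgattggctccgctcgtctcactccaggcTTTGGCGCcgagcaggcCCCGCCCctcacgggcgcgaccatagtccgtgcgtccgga
Rpa2: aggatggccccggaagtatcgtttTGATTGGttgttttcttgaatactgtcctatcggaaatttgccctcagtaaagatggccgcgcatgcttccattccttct
Top2b: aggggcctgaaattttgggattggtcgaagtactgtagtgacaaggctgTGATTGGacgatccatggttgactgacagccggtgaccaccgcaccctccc

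The 3 cell cycle inhibitors and, in the damage group, Btg1, Btg2 and Nabp1 held SP1 matches and no CCAATCA, whereas the Gadd45 genes held neither. Shown are 30 bases at Cdkn1a (chr17:29093657-29093686, plus strand), Cdkn1b (chr6:134920632-134920661, plus strand) and Cdkn2d (chr9:21291230-21291259, minus strand), and the peaks of Btg1 (chr10:96616788-96617005, plus strand) and Btg2 (chr1:134079121-134079321, minus strand) outside their exons.

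Cdkn1a: agaggggaGGGCGGGccagcgagtccccgg
Cdkn1b: tcccctcccttcCCCGCCCtccagtacact
Cdkn2d: tcagagcagacCCCGCCCgcgcaaggaaag
Btg1: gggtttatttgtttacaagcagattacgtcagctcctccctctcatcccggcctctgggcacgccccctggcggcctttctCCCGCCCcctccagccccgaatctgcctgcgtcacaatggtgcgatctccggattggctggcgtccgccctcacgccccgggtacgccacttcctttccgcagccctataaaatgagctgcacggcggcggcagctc
Btg2: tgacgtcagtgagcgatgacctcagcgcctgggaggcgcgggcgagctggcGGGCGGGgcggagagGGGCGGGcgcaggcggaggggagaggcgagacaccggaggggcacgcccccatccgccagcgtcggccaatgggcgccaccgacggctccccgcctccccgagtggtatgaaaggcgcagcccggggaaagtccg

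In the group of cell cycle control, Cks2, a small protein that binds cyclin-dependent kinases, had the highest mean. Its peak (chr13:51645006-51645347) gave normalised counts of 83.4 in replicate 1, 63.5 in replicate 2 and 70.0 in replicate 3, which is 72.3 ± 10.1 on average (SD, n = 3 libraries for all values given so). It ranked 83 of 1131 peaks by mean, and the libraries did not differ beyond counting noise (chi-square test, adjusted p = 0.417). Ccnyl1 gave 84.2, 71.8 and 52.2 (mean 69.4 ± 16.1), above Cks2 in replicates 1 and 2 and below it in replicate 3, so neither was higher beyond the spread between libraries. This gene and Ccnl1, Cdk19 and Cdc42ep1 entered through the letters of their symbols: they encode a cyclin Y-like protein, a cyclin tied to splicing, a kinase of the Mediator complex and an effector of the small GTPase CDC42. The proteins that act on the cycle itself were thus Cks2 and 3 inhibitors.

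The 3 inhibitors, which block cyclin-dependent kinases in G1, had lower counts than Cks2. Cdkn2d (p19) gave 37.1, 23.5 and 33.4 (mean 31.4 ± 7.07). Cdkn1b (p27) gave 9.86, 35.9 and 29.3 (mean 25.0 ± 13.5), with replicate 1 well below the other two and a range of 3.64-fold, the widest among the members. Its libraries differed beyond counting noise (adjusted p = 0.00289).

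Cdkn1a (p21), the inhibitor best known as a target of p53, had a pair of peaks, and neither lay at the first annotated start of the gene. The first (chr17:29093657-29093777) was centred 52.5 bases upstream of an internal transcript start, 2740.5 bases downstream of the gene start, and had 9, 13 and 15 raw counts (normalised mean 13.5 ± 5.88). The second (chr17:29095458-29095557) was in an intron, 1726 bases downstream of the nearest Cdkn1a start, with 16, 7 and 11 raw counts (normalised mean 11.1 ± 1.28). Both were shallow, with a library under 10 counts each, and the values of the peaks overlapped between them. Both held the SP1 motif, in the first peak at -101 and -43 from the internal start.

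Among the replication genes, the peak listed for Poldip3 had the highest counts, with normalised values of 94.0, 53.9 and 54.3 (mean 67.4 ± 23.0), and replicate 1 stood above the others (adjusted p = 0.00399). It is not clear which gene this peak belongs to: its centre lay 209.5 bases from the start of Rnu12, a small nuclear RNA gene of the minor spliceosome on the opposite strand, whereas it was at -469.5 bases from that of Poldip3. Poldip3, which encodes a partner of DNA polymerase delta, is also known for a role in mRNA translation. Top1, the topoisomerase that relaxes supercoils ahead of forks and polymerases, was next and was even across libraries, with 42.5, 48.3 and 47.0 (mean 45.9 ± 3.09). Per 100 bases of peak, Top1 (23.1) ranked 86 of 1131.

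Rrm2b, the p53-inducible subunit of ribonucleotide reductase, gave 24.3, 41.4 and 37.6 (mean 34.4 ± 9.02), and Pcna, the sliding clamp of the polymerases, had a mean of 18.7 ± 3.38. The remaining members were Rpa2, a subunit of the single-strand binding complex, and the topoisomerases Top3b and Top2b, all shallow. Rpa2 had 13, 9 and 16 raw counts and Top3b had 12, 14 and 7. Top2b, with 12, 4 and 9 raw counts and a normalised mean of 8.01 ± 2.16, was the lowest of all members and ranked 1072 of 1131. The Top3b peak was also near the start of Vpreb1 on the opposite strand.

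Tubulins led the mitosis group. Tubb4b, a beta-tubulin (chr2:25224652-25224982), had 313, 97 and 147 raw counts in replicates 1, 2 and 3, or 175 ± 54.9 after normalisation. It ranked 6 of 1131 by mean and 3 per 100 bases (52.9). By the chi-square test, which calls smaller differences where counts are deep, it had the lowest adjusted p among members, 1.87e-06. Its range between libraries was 1.77-fold, with replicate 1 high. After normalisation even its lowest library was above every library of every other member. Tubb5 gave 37.9, 73.2 and 62.7 (mean 57.9 ± 18.1), here with replicate 1 low (adjusted p = 0.0172). In all, 9 of the 18 mitosis peaks were at 5 tubulin genes, and these took 40.5%, 36.2% and 36.3% of the members' counts in replicates 1, 2 and 3. Tubulin genes have close copies, and the authors removed reads that map to several places, so their counts may be too low.

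The alpha-tubulin genes Tuba1b and Tuba1c lie near each other on chromosome 15 and had 3 and 2 peaks. At Tuba1b, the peak 31.5 bases upstream of the start gave 69.0, 49.7 and 59.6 (mean 59.4 ± 9.63). A second peak, centred at -988.5 bases, had higher values in every library, 97.8, 95.3 and 84.6 (mean 92.6 ± 6.99), and its centre lay 906.5 bases from the start of the noncoding gene Gm41396. Per 100 bases these were 17.0 and 21.1. The third, in an intron, was lower, with 14.4, 16.6 and 18.8 (mean 16.6 ± 2.20). At Tuba1c, the wider peak gave 56.9, 45.6 and 27.2 (mean 43.2 ± 15.0, adjusted p = 0.0287) and was centred 90.5 bases upstream of an internal start, while the narrower peak at the first start gave 13.6, 15.2 and 9.40 (mean 12.7 ± 3.0). The start of Tuba1a, which stands between them, also had a peak, listed in the table under the neighbouring gene Gm49450, with 139, 65 and 85 raw counts. Tubb2a, another beta-tubulin, had a peak at its start with 34.1, 44.2 and 20.9 (mean 33.1 ± 11.7). A lower peak in an intron of Tubb2a gave 17.4, 9.67 and 17.8 (mean 15.0 ± 4.58).

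Plk2, a polo-like kinase of the centriole cycle and a p53 target, had 3 peaks within 1000 bases of its start. The farthest upstream, centred at -589.5, was the highest, with 35.6, 31.8 and 38.7 (mean 35.4 ± 3.45). The peak at -159 gave 8.34, 22.1 and 12.5 (mean 14.3 ± 7.05) and the peak on the start itself gave 9.86, 9.67 and 8.36 (mean 9.29 ± 0.82). The lowest value of the farthest peak was above the highest values of the other two, but it was also the widest of the 3 peaks (237 bases, against 100 and 109). Per 100 bases, mean normalised counts were 14.9, 14.3 and 8.53 in the same order.

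Genes of chromosome segregation had fewer counts than the tubulins that led the group. Smc3, a cohesin subunit, gave 23.5, 30.4 and 24.0 (mean 26.0 ± 3.83) at a peak 326.5 bases upstream of its start. Anapc5, a subunit of the anaphase-promoting complex, had a mean of 20.7 ± 4.98, and Cdc20, the activator of that complex, had 14.4 ± 2.96. Of the kinesins, Kifc1, a minus-end motor of the spindle, had 16.8 ± 0.93, Kif24, which acts at centrioles, had 13.7 ± 3.80, and Kif18b, which shortens microtubules, had 12.2 ± 2.90. None of these 6 peaks passed the chi-square test (0 of 6), where 17.9% of all peaks did. Cdc20, Kif24 and Kif18b each had a library with fewer than 10 counts, so small differences between libraries were not detectable there.

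The DNA damage and growth arrest group contained the 3 Gadd45 genes, stress sensors that bind p38 and CDK complexes, the antiproliferative genes Btg1 and Btg2, and Nabp1, which encodes a single-strand DNA-binding protein of the damage response. Gadd45b gave 66.0, 42.8 and 49.1 (mean 52.6 ± 12.0), Btg1 gave 40.9, 52.5 and 41.8 (mean 45.1 ± 6.44), and Btg2 gave 22.7, 37.3 and 37.6 (mean 32.6 ± 8.49). These 3 did not differ between libraries beyond counting noise. The other 3 of the 6 did (50%, Wilson interval 18.8 to 81.2), against 17.9% of all peaks, and none of these 3 was called without replicate 1. Gadd45g was high in replicate 1 (47.8, 20.7 and 18.8, mean 29.1 ± 16.2, adjusted p = 0.00194). Nabp1 was high in replicate 3 (17.4, 26.2 and 41.8, mean 28.5 ± 12.3, adjusted p = 0.0198). Gadd45a was high in replicate 2 (9.86, 29.0 and 12.5, mean 17.1 ± 10.4, adjusted p = 0.0203). The order of these genes by mean therefore does not hold in each library.

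**Figure D1:**
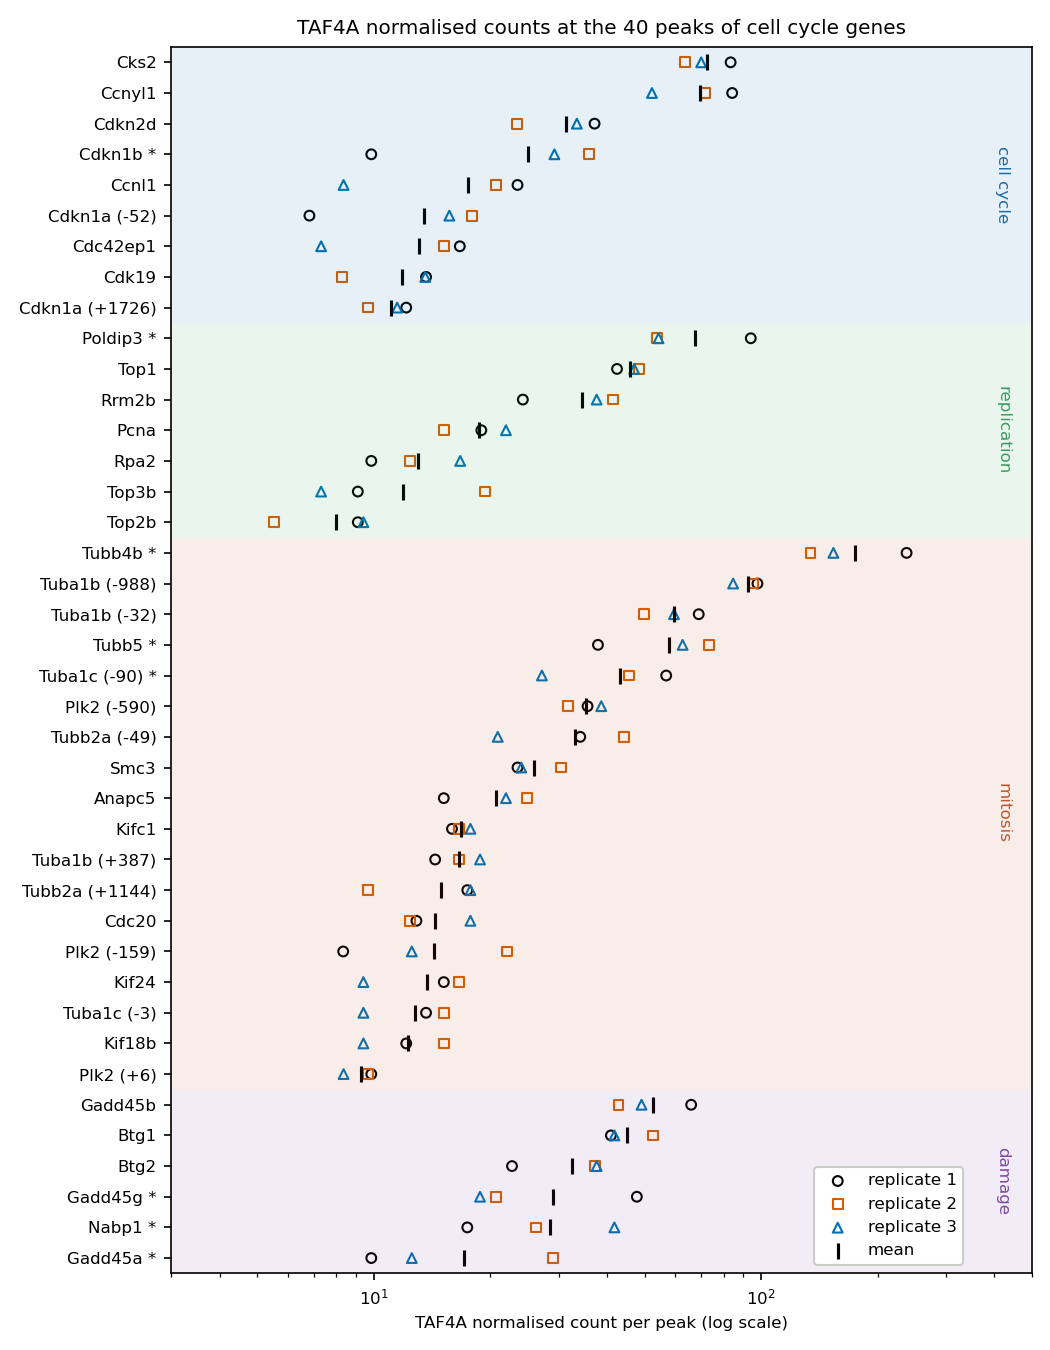
TAF4A normalised counts (log axis) at each of the 40 peaks, with 1 symbol per library and a bar at the mean, ordered within the 4 groups. Numbers after a gene with several peaks give the distance in bases from its nearest transcript start, and an asterisk marks a peak at which the libraries differed (chi-square test, adjusted p under 0.05). Tubb4b stands to the right of all other members, and Cdkn1b shows the widest range, 3.64-fold.

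In all, the libraries differed beyond counting noise at 8 of the 40 member peaks (20%), namely Tubb4b, Gadd45g, Cdkn1b, Poldip3, Tubb5, Nabp1, Gadd45a and the wider Tuba1c peak. Among all peaks tested, 17.9% differed, so over all members the share was near the background. The authors called peaks in each library and then unified them. A peak high in a single library could thus enter the set, which favours a difference between libraries. When no library was allowed under 10 counts, 8 of 26 members (30.8%) differed, against 139 of 735 peaks (18.9%). An exact multinomial test, added after seeing the data, called the same 8. By the chi-square test on the other two libraries, 0 of the 40 members were called without replicate 1, against 31 of 1131 peaks (2.74%). Without replicate 2, 9 members (22.5%) were called, against 16.2% of all peaks, and without replicate 3, 6 members (15%), against 8.4%. As for all peaks, 35.0% of the members had a library with fewer than 10 counts.

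As a whole, the members had levels near those of the other peaks. Their median log2 normalised count minus that of the other 1091 peaks was -0.11, 0.21 and 0.10 in replicates 1, 2 and 3 (mean 0.07 ± 0.16), with a sign that differed between libraries. Among peaks where no library had under 10 counts, the 26 members left were above the 709 others in 3 of 3 libraries, by 0.32 ± 0.04, so the difference depends on this minimum. The median mean normalised count of all 40 members was 22.8, against 20.2 for all peaks, and their median width was 187 bases, against 161.

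Among the groups, the damage genes had the highest median. On the log2 scale it was 4.98, 5.08 and 5.35 in replicates 1, 2 and 3, against 4.17, 4.49 and 4.38 for the other members, a difference of 0.79 ± 0.18. It was above the others in 3 of 3 libraries, but an exact two-sided sign permutation test gave p = 0.25, the smallest p that 3 libraries allow. No library fell below 10 counts at any of the 6 damage peaks, and when the others were held to the same minimum the difference turned to -0.15. Per base of width it was 0.22 ± 0.10. The medians of the other groups minus the rest were -0.24 ± 0.14 for mitosis, -0.06 ± 0.25 for replication and -0.32 ± 0.14 for cell cycle control. The last turned to 0.36 with the count minimum and to 0.12 among promoter peaks alone, so no order of the groups can be given.

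The position of the member peaks was examined next. The centre of 37 of 40 (92.5%, 95% Wilson interval 80.1 to 97.4) lay within 1000 bases of an annotated transcript start, against 82.1% of all peaks. Every member must have a gene symbol, which the table leaves blank for peaks assigned to no gene and for some genes, mostly noncoding, and among the other 888 peaks with a symbol the share was 91.3%. The exceptions were the second peaks of Cdkn1a and Tubb2a, both in introns, and the peak listed for Cdc42ep1, which was intergenic and 9620 bases upstream of that gene. The promoter peaks were centred at a median of -64.5 bases from the nearest start of their own gene (quartiles -114.5 and -11.5). Of all 40 members, 31 (77.5%) were centred upstream of that start, against 80.1% of the other peaks with a symbol. In the damage group, 6 of 6 peaks were centred upstream, whereas Top1, Rrm2b, Pcna and Top3b of the replication group were centred just downstream, at 24.5, 49, 55.5 and 7 bases. Cdk19 resembled Cdkn1a in that its peak lay 9620.5 bases inside the gene but 123.5 bases upstream of an internal start. A protein-coding gene began on the opposite strand within 1000 bases at 2 of 40 members (5%), Kif24 (with Nudt2) and Top3b (with Vpreb1), against 12.8% of all peaks.

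**Figure D2:**
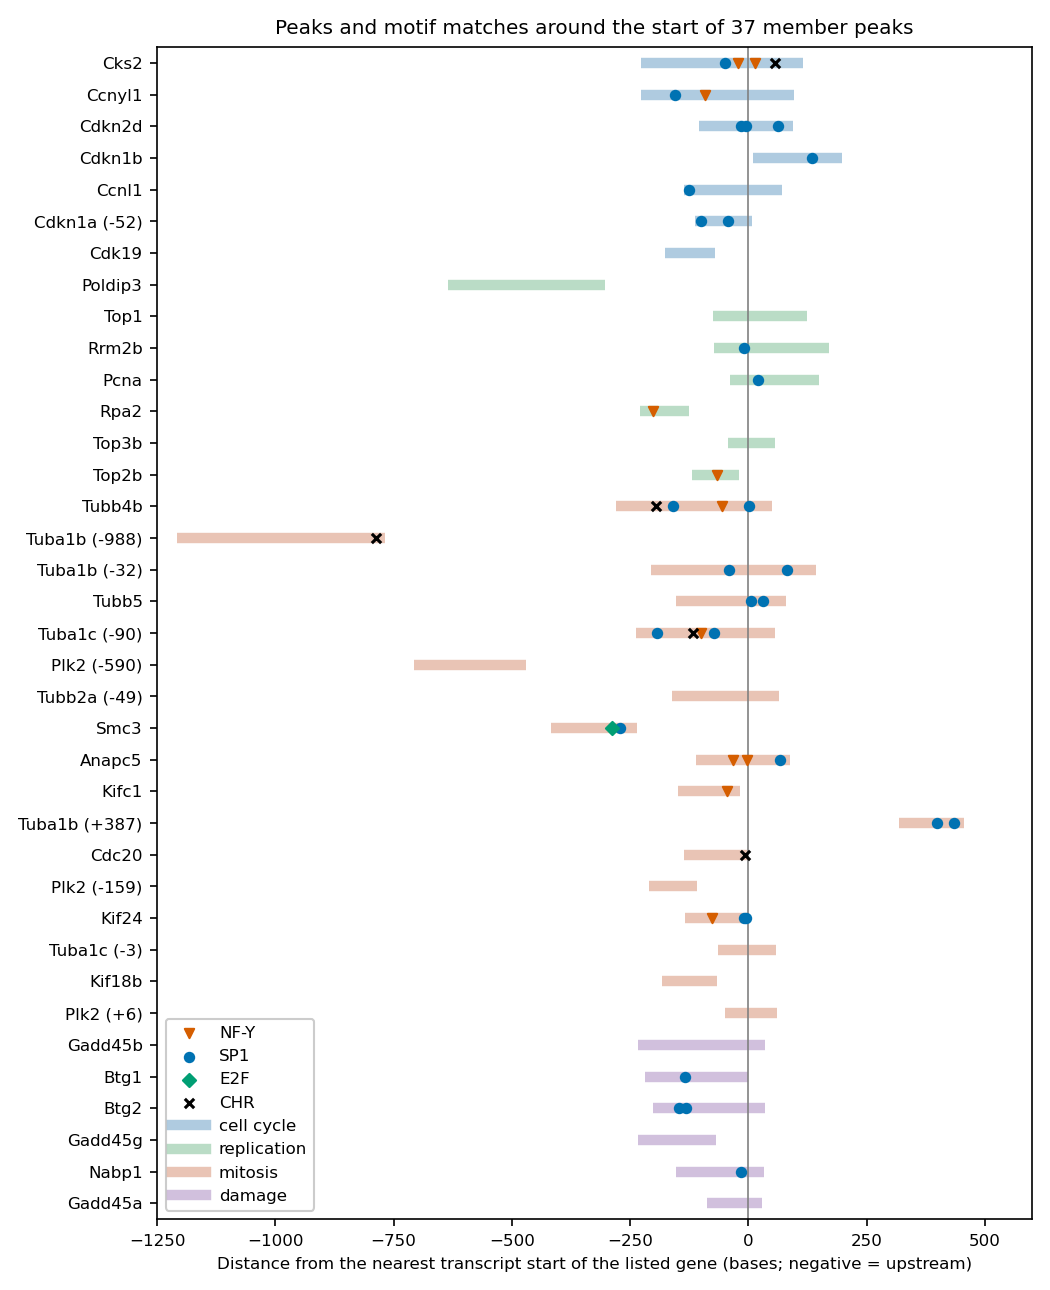
Extent of the 37 member peaks at promoters (bars, coloured by group) along the distance in bases from the nearest transcript start of the listed gene, with the centres of NF-Y, SP1, E2F and CHR motif matches. Bars gather just upstream of 0, with the second Tuba1b peak at -988.5, a Plk2 peak at -589.5, Poldip3 at -469.5 and Smc3 at -326.5 farther out.

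Motifs of the classic cell cycle promoters differed widely in how often they were found in the members. The SP1 motif was the most frequent, in 21 of 40 peaks (52.5%, 37.5 to 67.1), against 35.9% of all peaks. In windows of 200 bases centred on each peak, which take out differences in width, the shares were 60.0% and 37.4%. Among promoter peaks alone, SP1 was in 51.4% of the members (35.9 to 66.6) and in 41.5% of the others, and the shorter GGGCGG was in 59.5% and 54.9%. The members were also richer in G and C (median 63.3%) than all peaks (59.4%), and what this adds to the SP1 share was not tested. SP1 was found in 8 of 9 peaks of cell cycle control, with Cdk19 as the exception, and in 2 of 7 replication peaks, Rrm2b and Pcna.

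The NF-Y motif was found in 9 members (22.5%, 12.3 to 37.5), against 17.5% of all peaks. These were Cks2, Ccnyl1, Tubb4b, Tuba1c, Anapc5, Kifc1, Kif24, Rpa2 and Top2b. Of their 11 matches, 10 lay upstream of the start, at a median of -56 bases, and 9 were on the strand opposite to the gene. Cks2 held a pair 36 bases apart and Anapc5 a pair 30 bases apart. The CHR motif was in 5 members (12.5%, 5.46 to 26.1), namely Cks2, Tubb4b, Tuba1c, Cdc20 and the upstream Tuba1b peak, against 7.78% of all peaks. In windows of 200 bases it was in 7.50% of the members and 8.40% of all peaks. Both NF-Y and CHR were present at Cks2, Tubb4b and Tuba1c (7.50%), against 2.39% of all peaks. These 3 peaks were wide (295 to 342 bases, against a median of 161), and in windows of 200 bases, added after seeing the data, both motifs were in 2 of 40 members (5%), Tubb4b and Tuba1c, against 2.12% of all peaks. E2F sequences were found in a single member, Smc3 (2.5%, 0.443 to 12.9), against 3.01% of all peaks, and in no member of the replication group. With peaks widened by 100 bases on each side, 2 members (5%) held them, Smc3 and the replication gene Rpa2, against 5.31% of all peaks. Intervals cover counting error only, and these letters are a narrow form of each motif.

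The damage group gave another result with CCAAT, the core of the NF-Y motif, than with the longer form. None of its 6 peaks held CCAATCA, which allows a share of up to 39.0% by the Wilson interval, yet 6 of 6 held CCAAT, upstream of the start at 7 of 7 matches, with a median of -80 bases. The position was not particular to the group, since 31 of 34 CCAAT matches of all members within 1000 bases of a start lay upstream, at a median of -79.5. Among all peaks 45.2% held it, and among all promoter peaks 50%. It was found in 20 of the 40 members. The group is small, and this form was looked at in it after the values were seen. The 30 bases around 1 box of each gene are shown on the strand of the gene, with CCAAT or its reverse ATTGG in capitals. They come from Gadd45b (chr10:80929979-80930008, where a second box at -119 is not shown), Gadd45g (chr13:51846585-51846614), Gadd45a (chr6:67037477-67037506), Btg1 (chr10:96616909-96616938), Btg2 (chr1:134079173-134079202) and Nabp1 (chr1:51478558-51478587), on the minus strand for Gadd45a, Btg2 and Nabp1.

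Gadd45b: tttgtgcatctaCCAATgggtggaaagcgc
Gadd45g: agcgggcgctggCCAATgggagtgcagcct
Gadd45a: taatttgcataacCCAATggcctgactgca
Btg1: tgcgatctccggATTGGctggcgtccgccc
Btg2: ccgccagcgtcggCCAATgggcgccaccga
Nabp1: tggccgagagaccATTGGtcggccgggagg

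**Figure D3:**
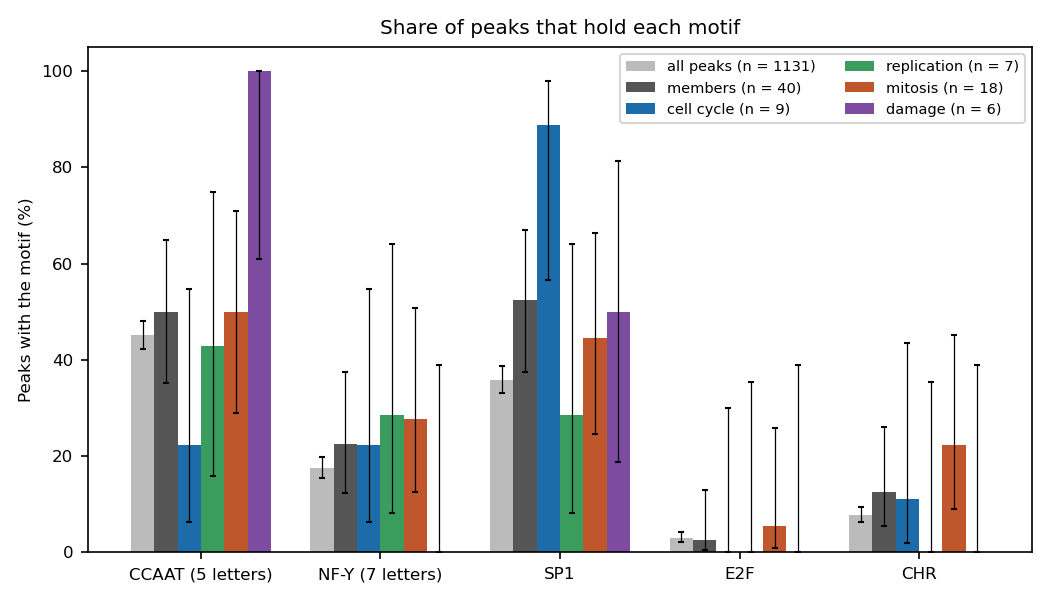
Percent of peaks that hold CCAAT, the longer NF-Y motif, SP1, E2F or CHR, for all 1131 peaks, the 40 members and the 4 groups, with 95% Wilson intervals as bars. CCAAT reaches 6 of 6 in the damage group and SP1 8 of 9 in cell cycle control, and the wide intervals show how few peaks each group holds.

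The promoters of the member genes, whether or not a peak covers all of them, were taken from RefSeq (GRCm38). For 30 of the 33 symbols, 31 promoters spanning 250 bases before to 50 after the start were found, and Cdk19, Poldip3 and Rrm2b were not matched. The NF-Y motif was in 29.0% of them, against 7.82% of 32851 promoters, and SP1 was in 54.8%, against 25.6%. CHR was in 12.9%, against 17.9%, and E2F in 0 of 31, against 2.26%. The members were chosen among genes with a peak, and the 754 promoters of genes listed for other promoter peaks held NF-Y in 19.0%, SP1 in 53.1%, CHR in 11.8% and E2F in 5.57%. The SP1 share of the members was thus close to that of other genes with a promoter peak.

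Since the members were defined by having a peak, the share of the pathways that TAF4A peaks covered was counted from 4 gene lists. Of 255 genes, 39 (15.3%, 11.4 to 20.2) had a peak centred within 1000 bases of a transcript start, against 4.29% of all protein-coding genes (941 of 21951). The lists were chosen with earlier results of these data known and overlap the members, to which 22 of the 39 genes belong, so they are not independent evidence. The share was 7 of 55 for cell cycle control, 6 of 61 for replication, 14 of 77 for mitosis and 12 of 62 for DNA damage, with intervals that overlapped. The lists hold genes that proliferating cells use, whereas the annotation also holds genes that are silent in MuSCs, and no expression was measured here.

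Most of the core machinery had no peak. Of cell cycle control, E2f3, a transcription factor of S phase entry, had 145, 71 and 88 raw counts, and Wee1, the kinase that holds back CDK1, had 58, 33 and 35, but the cyclins Ccnd1, Ccne1, Ccna2 and Ccnb1 and the kinases Cdk1 and Cdk2 had none. Of replication, Cdt1, a licensing factor, had a shallow peak with 18, 5 and 19 counts, and a peak listed for Ap4m1 lay at Mcm7, a subunit of the replicative helicase, while Mcm2, Mcm3, Mcm4, Mcm5, Mcm6, Orc1 and Cdc6 had none. Of mitosis, Ube2s, an enzyme of the anaphase-promoting complex, had 110, 30 and 45 counts, and Incenp, Prc1 and Ncapg were shallow, while Plk1, Aurka, Aurkb and Bub1 had none. Of the damage list, H2afx (123, 56 and 71 raw counts) and Mdc1 (104, 44 and 52) had peaks, and Brca1 had a peak at -831 bases that is listed for its neighbour Nbr1. Trp53, Mdm2, Atm and Chek1 had none. At this depth, a gene without a peak is not shown to lack TAF4A.

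**Figure D4:**
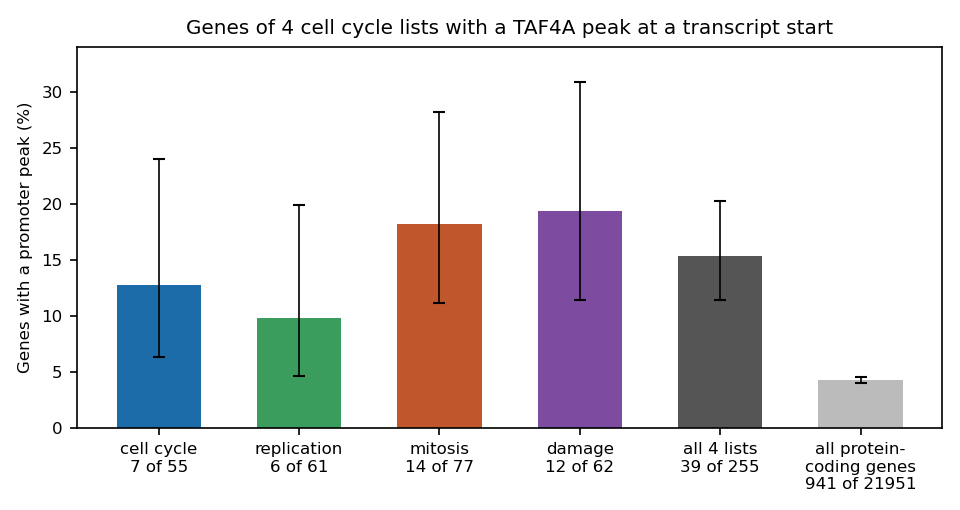
Percent of genes with a TAF4A peak centre within 1000 bases of a transcript start in 4 pathway lists, in the lists together and in all protein-coding genes, with 95% Wilson intervals. The lists together reach 15.3%, against 4.29% of all protein-coding genes, and the intervals of the 4 lists overlap.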

How the data were processed

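The table as deposited gives read counts in each peak for the 3 TAF4A libraries. The authors trimmed reads with Trimmomatic 0.39, aligned them to mm10 with STAR 2.7.9a, removed duplicates (Picard 2.25.5 in the methods, 2.21.7 in the submitters' processing notes) and multi-mapping reads, called peaks against IgG (MACS 2.1.1, false discovery rate 0.05), unified them and counted reads with featureCounts. The methods name DESeq2 for normalisation, but the deposited whole numbers sum to different totals and were treated as raw counts.

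Libraries were scaled by TMM (edgeR 4.0.16, R 4.3.3) to relative sizes of 1.32, 0.724 and 0.957, with DESeq2 1.42.0 size factors as an alternative. The biological coefficient of variation over all peaks was 0.291. Each peak's 3 counts were tested against the scaled sizes by chi-square, with Benjamini-Hochberg adjustment over all 1131 peaks and adjusted p under 0.05, after testing on simulated data. Log2 values used a pseudocount of 1, and group medians were compared within libraries by an exact sign permutation test. Annotation was GENCODE M21 on GRCm38 (the build mm10 names), and a promoter peak was centred within 1000 bases of any transcript start. Deposited starts were read as counted from 0, and coordinates here count from 1.

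Members, groups and gene lists were chosen with earlier results of these data known. Full values are given for the 3 highest peaks and the lowest peak of each group, for peaks at which libraries differed, for genes with several peaks, and for peaks with E2F or with NF-Y and CHR. Sequences shown were those of the 2 highest promoter peaks of at most 300 bases per group with NF-Y, E2F or CHR (otherwise SP1). Those of Cks2, Tubb4b, Cdkn1a and the CCAAT boxes were added after the values were seen, as were some other genes named with values. Python 3.11.15, pandas 2.3.3, scipy 1.17.1 and samtools 1.23.1 were used.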

Additional observations from a re-analysis of the deposited data

How the results depend on the processing

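Differing members were 8 of 40 with DESeq2 size factors (all peaks, 190 of 1131), 7 with total counts (182), 8 by the exact test (203), 8 of 26 with at least 10 counts in every library (139 of 735) and 4 at adjusted p under 0.01 (110 of 1131), and ranged from 0 (without replicate 1) to 9 when a library was left out. The NF-Y share was 50% with CCAAT (all peaks 45.2%), and the SP1 share 70% in peaks widened by 100 bases (all peaks 49.8%). The promoter share was 100% with at least 10 counts in every library, against 82.1% of all peaks with no count minimum. Leaving out a library, with no count minimum and per peak, members minus other peaks ranged from -0.00332 to 0.16 on the log2 scale, mitosis minus the rest from -0.32 to -0.19, damage from 0.70 to 0.89, replication from -0.14 to 0.09 and cell cycle control from -0.39 to -0.25. With the minimum, members minus other peaks was 0.32 ± 0.04, damage turned to -0.15 and cell cycle control to 0.36, which was 0.12 at promoters. Mitosis was -0.092 per base, -0.41 at promoters and -0.49 without tubulins, damage 0.59 with a pseudocount of 10 and 0.22 per base, and cell cycle control -0.059 per base. The 5 genes that entered by letters only were Poldip3 of replication and the others of cell cycle control. Without them, replication (6 peaks left) was -0.37 and cell cycle control (5 left) -0.077. That alternative was chosen after seeing the data, like the one without tubulins. The causes were not tested. Mean values of the 40 member peaks moved by less than their SD with DESeq2 size factors (40 of 40), and when a library was left out 1 moved by over 1.5 times, Gadd45a, from 17.1 to 11.2 without replicate 2. At peaks with fewer than 10 counts in a library, 14 of 40, single-peak differences below the spread between libraries were not detectable. No paired analysis was possible because the replicate numbers are shared only with the IgG libraries, whose counts were not analysed here.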
